A study of Mus musculus with 4 samples.

Results

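The 9 retinoid binding and metabolism genes described here are Stra6, Rbp4, Rdh10, Dhrs3, Crabp1, Crabp2, Cyp26a1, Cyp26b1 and Stra8. They were chosen by gene symbol, among 22180 genes that had a probe set of their own in the platform annotation, and each of the 9 was read by 1 probe set. The study measured total RNA of 4 mouse cell cultures on 1 array each. Both day 6 cultures were bulk cultures of reprogrammable mouse embryonic fibroblasts (repMEFs, in which doxycycline switches on reprogramming factors) sampled at day 6 of doxycycline, 1 with Firefly knockdown, used as the control, and 1 with Sumo2 knockdown. The other arrays held stable lines of induced pluripotent stem cells (iPSC) that came from fibroblasts with Sumo2 knockdown, labelled 38 h and 10 day, a time whose meaning the labels do not give. All cultures shared the strain Black6-129X1/SvJ, a pool of male and female cells and ESC medium with serum, and the labels list ascorbic acid and doxycycline as the treatment of the repMEFs. The retinoid content of the medium is not given. No condition was repeated, each iPSC array is a single line, and the labels do not tell whether cultures were grown separately.

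Vitamin A travels in blood as retinol bound to the carrier protein RBP4 and can enter cells through the membrane receptor STRA6. Inside the cell, retinol dehydrogenases such as RDH10 oxidise it to retinaldehyde, DHRS3 turns retinaldehyde back into retinol, and retinaldehyde dehydrogenases make retinoic acid. The cellular binding proteins CRABP1 and CRABP2 carry retinoic acid, CYP26 enzymes break it down, and its nuclear receptors switch on target genes, many of which belong to the same pathway. Retinoic acid is widely used to make mouse pluripotent cells differentiate.

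The windows from 250 bases before to 50 bases after the annotated start of transcription are shown for 3 of these genes because they bear on whether a gene holds the elements that retinoic acid receptors bind. RefSeq (GRCm38.p6) gave such windows for 7 of the 9 genes, 13 windows in all, and the sequences below are from that table. Capitals mark a receptor half-site, searched on both strands in 4 forms. These were AGGTCA as the consensus, AGTTCA with an inner letter changed, GGGTCA with an outer letter changed, and GGTTCA with both changes. The windows are chr19:37697558-37697857 for Cyp26a1, chr6:34920698-34920997 for Stra8 and chr4:144892577-144892876 for Dhrs3, all on the plus strand.
Cyp26a1: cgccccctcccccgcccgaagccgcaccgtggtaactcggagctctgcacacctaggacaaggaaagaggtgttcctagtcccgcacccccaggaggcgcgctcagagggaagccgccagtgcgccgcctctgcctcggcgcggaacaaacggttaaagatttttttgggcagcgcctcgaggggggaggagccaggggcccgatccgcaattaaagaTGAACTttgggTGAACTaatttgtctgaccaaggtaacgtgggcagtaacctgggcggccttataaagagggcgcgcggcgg
Stra8: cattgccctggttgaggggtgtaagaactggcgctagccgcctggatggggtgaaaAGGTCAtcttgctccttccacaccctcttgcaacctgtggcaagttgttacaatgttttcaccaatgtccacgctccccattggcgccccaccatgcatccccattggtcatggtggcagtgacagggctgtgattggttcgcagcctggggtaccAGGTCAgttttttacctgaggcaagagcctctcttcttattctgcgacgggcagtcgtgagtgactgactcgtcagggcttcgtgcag
Dhrs3: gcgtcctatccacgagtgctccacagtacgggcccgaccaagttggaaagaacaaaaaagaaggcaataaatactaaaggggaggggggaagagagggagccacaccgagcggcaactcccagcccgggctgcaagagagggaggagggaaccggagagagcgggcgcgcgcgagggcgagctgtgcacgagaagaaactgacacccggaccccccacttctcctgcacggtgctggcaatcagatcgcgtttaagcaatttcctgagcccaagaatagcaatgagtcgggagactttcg

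In the Cyp26a1 window, a pair of AGTTCA half-sites lay on the minus strand as a direct repeat spaced by 5 bases, the spacing of classical retinoic acid response elements. Its leftmost base was at position -32 from the annotated start. A direct repeat of any of these half-sites spaced by 5 bases was found in 32 of all 32851 windows (0.0974%), and one spaced by 1, 2 or 5 bases in 193 (0.588%). Of the 13 windows of the retinoid genes, 1 held such a repeat. The Stra8 window held AGGTCA at positions -194 and -38, and 16.3% of all windows held AGGTCA at least once. The Dhrs3 window held none of the half-sites, as did 9 of the 13 windows of these genes, while 43.7% of all windows held at least 1. Such matches describe letters in this window and not binding.

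All values below are log2 expression from RMA, and a level is comparable between arrays but not between genes. The measuring floor was the median of the probe sets with 1 gene symbol, 6.64 to 6.67 on the 4 arrays, and a gene counted as measured when it reached the floor on at least 1 of the arrays compared. Sumo2 itself read 10.65 with Firefly knockdown and 10.56 with Sumo2 knockdown, against 11.40 and 11.07 in the 38 h and 10 day lines. The transcript therefore does not show the knockdown, and that array is named here by its label, as the culture labelled Sumo2 knockdown. Cell identity followed the labels in part. Of 8 pluripotency markers 7 were above the floor in each iPSC line and 7 rose from day 6 to iPSC (14.3% of all genes tested did). The exception was Dppa5a, which was below the floor on the 4 arrays. Sox2, Zfp42 and Dppa3 counted as measured only through the iPSC arrays, so the number that rose is no support. Dppa3 was 1.36-fold higher counted from the floor, short of 2-fold. Of 8 fibroblast markers Thy1 and Prrx1 fell past the threshold, where 9.12% of all genes tested did. The 6 others did not pass, among them Fbln2, which was higher in iPSC (log2 difference 0.70), and Col1a1 and Col3a1 (both 0.07). Of the 8 markers, 7 remained above the floor in the 38 h line and 6 in the 10 day line. In cultures of mixed cells, fewer cells of a type and less RNA per cell cannot be told apart.

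The comparison of both iPSC lines with both day 6 cultures asked how retinoid genes differ between established pluripotent lines and cells midway through reprogramming. Crabp2, Rdh10 and Dhrs3 fell 4.13-fold to 5.32-fold, and all 3 stayed above the floor on every array. Stra8 rose as read, but almost entirely below the floor. Crabp1, Rbp4 and Cyp26b1 did not pass the test, and Cyp26a1 and Stra6 lay below the floor on all 4 arrays. A gene was said to rise or fall when limma gave an adjusted p under 0.05 and the means were at least 2-fold apart. Of 12735 genes tested, 9.12% fell and 14.3% rose by this rule, against 3 and 1 of the 7 measured retinoid genes. The median log2 difference of these 7 was -0.42, against 0.15 over all genes tested. Of the 7, 5 had groups that did not overlap (all but Rbp4 and Cyp26b1), as had 79.5% of the genes tested. The arrays of each pair are not repeats of 1 condition, because the spread between them takes in the knockdown at day 6 and line differences in iPSC.

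**Figure D1:**
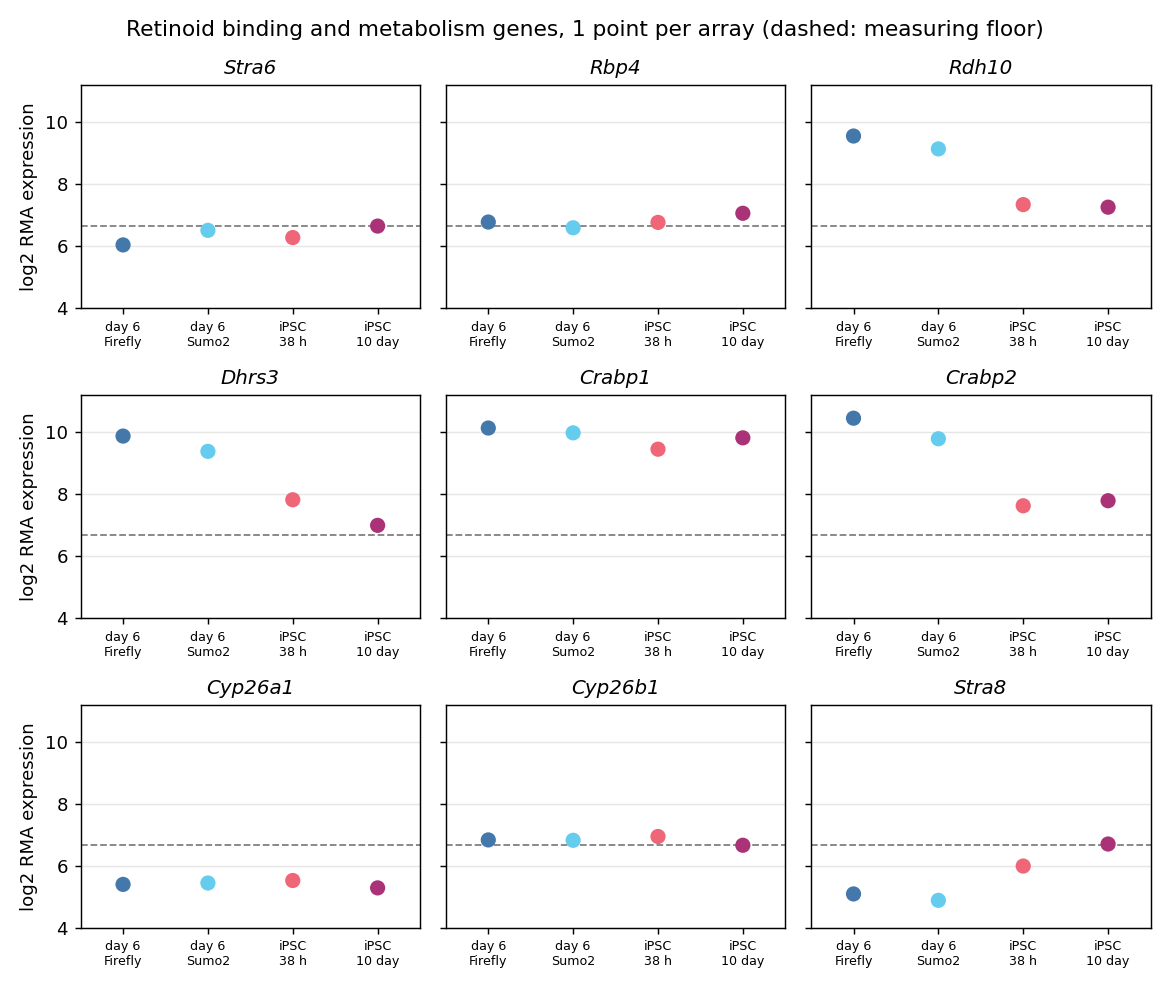
Log2 RMA expression (vertical axis) of the 9 retinoid genes on each of the 4 arrays (horizontal axis), 1 point per array, with the mean measuring floor as a dashed line. Rdh10, Dhrs3 and Crabp2 stood higher in both day 6 cultures than in both iPSC lines, Crabp1 was high on every array, and Stra6, Cyp26a1 and all but 1 Stra8 value lay below the floor.

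Uptake and transport genes were near the floor. Stra6, the membrane receptor for the retinol carrier, read 6.04 with Firefly knockdown, 6.51 in the culture labelled Sumo2 knockdown, 6.28 in the 38 h line and 6.65 in the 10 day line. Each of these was below the floor of its array, so Stra6 was not tested and has no fold. Rbp4, the retinol carrier itself, read 6.78 and 6.59 at day 6 and 6.77 and 7.06 in the 38 h and 10 day lines. Its groups overlapped, the 10 day line was highest, and the log2 difference of 0.23 did not pass (SE 0.20, 95% interval -0.26 to 0.72, limma adjusted p = 0.384). Rbp4 is also a gene of visceral endoderm. The 12 markers of primitive and visceral endoderm had a mean log2 level of 6.97 and 6.95 at day 6, 7.34 in the 38 h line and 6.50 in the 10 day line, with 6, 6, 9 and 5 of them above the floor. Of the 10 measured markers of that list, 1 rose and 1 fell, where 14.3% and 9.12% of all genes tested did. Gata6, a transcription factor of primitive endoderm, rose (6.49 and 6.39 at day 6, 8.41 and 7.12 in the 38 h and 10 day lines). Gata6 counted as measured only through the iPSC arrays, so its call is no support. Dab2 fell (11.07 and 10.68 at day 6 against 9.69 and 8.05 in the lines). Hnf4a, a transcription factor of visceral endoderm, reached the floor only in the lines and was highest in the 10 day line, at 6.93, without passing the test. Rbp4 was also highest there, but of the 9 markers measured in the lines Hnf4a was the only 1 higher in the 10 day line. The 8 others were lower there, and the median log2 difference between the lines was -0.94. Cubn, an endocytic receptor of visceral endoderm, read 9.63 in the 38 h line and 5.13 in the 10 day line, the widest gap of the list. Afp and Sox17 lay below the floor on all arrays, as did the 4 hepatocyte markers. The part of other cells in Rbp4 was not tested.

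Of the enzymes that interconvert retinol and retinaldehyde, Rdh10 and Dhrs3 were well above the floor at day 6 and lower in iPSC. Rdh10, the retinol dehydrogenase that provides retinaldehyde in the mouse embryo, read 9.55 with Firefly knockdown, 9.14 in the culture labelled Sumo2 knockdown, 7.34 in the 38 h line and 7.26 in the 10 day line. Both iPSC values lay well below both day 6 values, and the lines were nearly equal. Rdh10 fell 4.13-fold (limma adjusted p = 0.000754, log2 difference -2.05 ± 0.19 SE), with every iPSC array lower than every day 6 array. Dhrs3, the reductase that works in the opposite direction and is itself induced by retinoic acid, read 9.87, 9.37, 7.81 and 6.99 on the same arrays in that order. The groups did not overlap, and the 10 day line was the lowest array. Dhrs3 fell 4.66-fold (limma adjusted p = 0.00249, log2 difference -2.22 ± 0.31 SE), and the single pairs of iPSC and day 6 arrays ranged from -2.88 to -1.56. Rdh10 and Dhrs3, which work in opposite directions, were thus both lower in the iPSC lines.

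The binding proteins for retinoic acid differed from each other. Crabp2, which delivers retinoic acid to its receptors in the nucleus, read 10.44 with Firefly knockdown, 9.78 in the culture labelled Sumo2 knockdown, 7.62 in the 38 h line and 7.78 in the 10 day line. It had the largest difference of the 9 genes. Crabp2 fell 5.32-fold (limma adjusted p = 0.000903, log2 difference -2.41 ± 0.25 SE), and the pair of the Firefly array and the 38 h line was furthest apart, at -2.83. Crabp1, the paralog linked to retinoic acid breakdown in the cytoplasm, read 10.13, 9.97, 9.44 and 9.81 on the same arrays in that order. It stayed far above the floor everywhere, and the iPSC values were only slightly lower than the day 6 values. Its log2 difference of -0.42 did not pass (SE 0.18, 95% interval -0.86 to 0.02, limma adjusted p = 0.100). After cyclic loess scaling, which lowered the median difference of all genes tested from 0.15 to 0.03, Crabp1 stood at -0.61 (adjusted p = 0.0394, range over its 12 alternatives 0.0394 to 0.397), still short of 2-fold. Relative to these medians its difference was of like size under both scalings. The interval of Crabp2 (-3.01 to -1.82) lay wholly below that of Crabp1, though the difference between the paralogs was not itself tested.

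The enzymes that clear retinoic acid gave little signal. Cyp26a1, which is strongly induced by retinoic acid in embryonic cells and whose window above holds the repeat, read 5.40, 5.44, 5.52 and 5.29 for Firefly, the culture labelled Sumo2 knockdown, 38 h and 10 day. The 4 values lay within 0.24 of each other and below the floor, so it was not tested. Cyp26c1, the neighbouring gene on the chromosome and a member of the same family, was also below the floor on all arrays, between 5.58 and 6.05. Cyp26b1, the clearance enzyme of the limb and the fetal testis, read 6.83, 6.82, 6.94 and 6.66, just above the floor on 3 arrays and just under it in the 10 day line. Its groups overlapped, and the log2 difference was -0.02 (SE 0.20, 95% interval -0.50 to 0.45, limma adjusted p = 0.926). How well these probe sets respond was not tested.

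**Figure D2:**
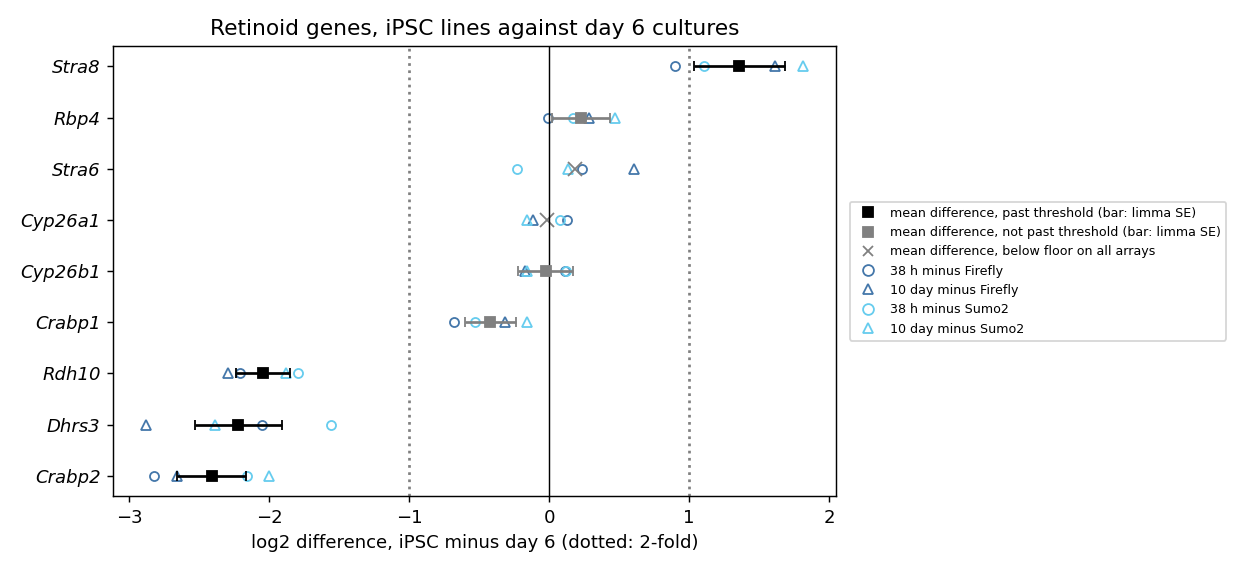
Log2 difference of iPSC minus day 6 (horizontal axis) for the 9 genes (vertical axis), with squares for the mean difference, bars for its limma SE and open symbols for the 4 pairs of arrays. Crabp2, Dhrs3 and Rdh10 lie below -1.5 in every pair, Stra8 lies above 0 in every pair, and the other 5 genes lie within 1 of zero.

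Stra8, a gene induced by retinoic acid that germ cells need to enter meiosis, read 5.09 with Firefly knockdown, 4.89 in the culture labelled Sumo2 knockdown, 5.99 in the 38 h line and 6.70 in the 10 day line. Only the 10 day value reached the floor, by 0.03, so Stra8 was measured through that array alone. As read, it rose 2.56-fold (limma adjusted p = 0.0161, log2 difference 1.36 ± 0.32 SE). Counted from the floor the fold was 1.02, and with values raised to the floor the adjusted p was 0.825 (range over 10 alternatives 0.00132 to 0.825). Without the Firefly array the log2 difference was 1.46 with an adjusted p of 0.0641, and without the culture labelled Sumo2 knockdown it was 1.26 with 0.0671, so the call was lost in both cases. Without the 10 day line Stra8 was not measured.

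Germ cell and meiosis genes were read for comparison with Stra8. Of 8 such markers 6 were measured, 5 rose (14.3% of all genes tested did) and Rec8, a meiotic cohesin gene, fell. The 5 that rose, Dazl, Ddx4, Dmc1, Hormad1 and Meioc, were below the floor in both day 6 cultures. They counted as measured only through the iPSC arrays, so neither their number nor their p-values are support. Counted from the floor, Hormad1 was 1.40-fold and Meioc 1.998-fold higher, both short of 2-fold. The mean log2 level of the list was 5.54 and 5.58 at day 6 and 7.62 and 7.98 in the 38 h and 10 day lines. Ddx4, a germ cell RNA helicase gene, lay below the floor in both day 6 cultures and read 9.94 and 9.42 in the lines. Counted from the floor it was at least 8.12-fold higher. Dazl, which encodes a germ cell RNA-binding protein, read 8.72 and 9.71 in the lines and was at least 5.90-fold higher on the same count. As read, Ddx4 and Dazl differed by 4.34 and 4.26 on the log2 scale (limma adjusted p = 0.000142 and 0.000475). Sycp1, of the synaptonemal complex, was below the floor on all arrays. Whether these genes bear on Stra8 was not tested.

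**Figure D3:**
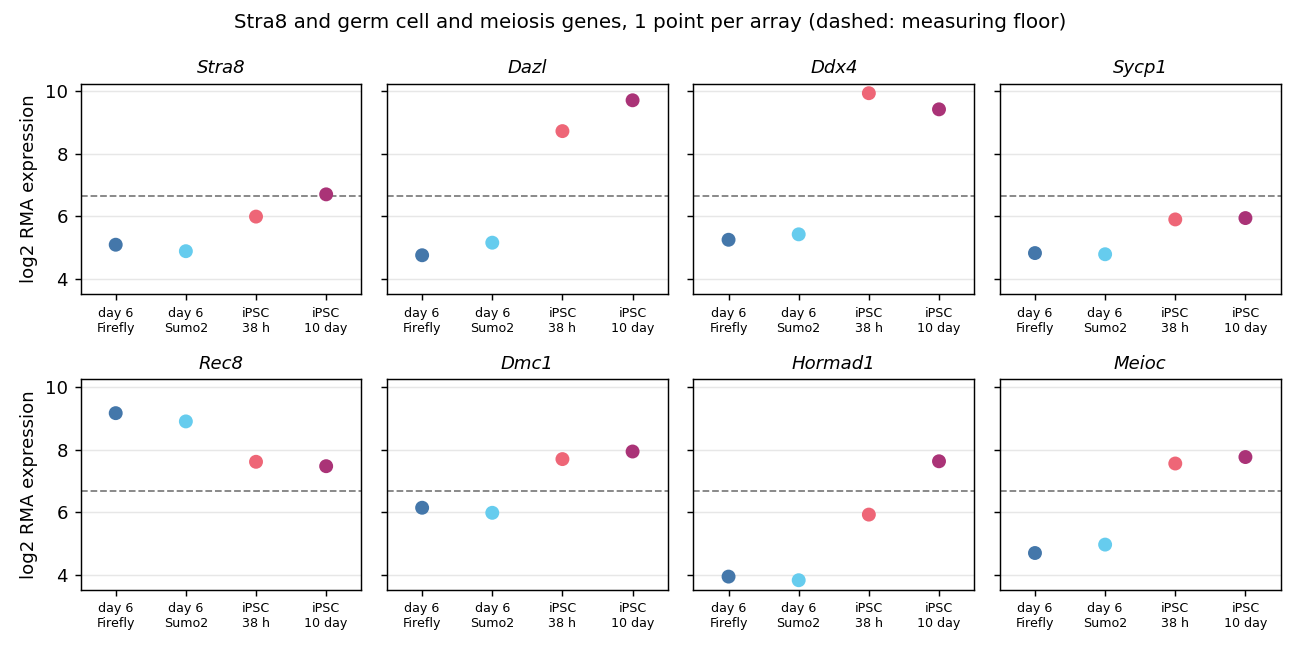
Log2 RMA expression (vertical axis) of Stra8 and the 7 germ cell and meiosis markers with a probe set of their own on each of the 4 arrays (horizontal axis), 1 point per array, with the mean measuring floor dashed. Dazl, Ddx4, Dmc1 and Meioc lie above the floor in both lines and below it at day 6, Rec8 is higher at day 6, and Stra8 reaches the floor only in the 10 day line.

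The comparison of the day 6 cultures asked what Sumo2 knockdown changed midway through reprogramming, and no retinoid gene differed by 2-fold. It sets 1 array against 1, so it has no replicate check and no p-value. All 6 measured genes were lower in the culture labelled Sumo2 knockdown, where 46.3% of 11740 measured genes were lower by any size, and 1.18% differed at least 2-fold in either direction. Crabp2 was lower by 0.66 on the log2 scale (1.58-fold), Dhrs3 by 0.49 (1.41-fold) and Rdh10 by 0.42 (1.33-fold). The other log2 differences were -0.16 for Crabp1, -0.19 for Rbp4 and -0.01 for Cyp26b1. For the 6 genes the median was -0.30, against 0.02 over all measured genes, whose log2 differences had an SD of 0.33. For Crabp2, Dhrs3, Rdh10 and Crabp1, the culture labelled Sumo2 knockdown lay between the Firefly culture and both iPSC lines. The share of all genes with that order was not counted. Fibroblast markers were lower in the culture labelled Sumo2 knockdown, 8 of 8, with a median log2 difference of -0.56. Of the 4 measured pluripotency markers, 3 were at least 2-fold higher there. The part of these markers in the retinoid differences was not tested.

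Between the iPSC lines, also 1 array against 1, no retinoid gene differed by 2-fold either, where 3.22% of 11754 measured genes did. Dhrs3 was 1.77-fold lower in the 10 day line (log2 difference -0.83), and Stra8 read 0.71 higher there, or 0.05 counted from the floor. Crabp1 was higher in the 10 day line by 0.37, Rbp4 by 0.29 and Crabp2 by 0.16. Cyp26b1 (-0.28) and Rdh10 (-0.08) were lower. So 4 of 7 measured genes were higher in the 10 day line and 3 lower, against 52.5% of all measured genes lower, and the SD over those genes was 0.41.

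The other genes of the pathway, 52 in 5 lists by role, changed in part. Of 47 with a probe set of their own, 29 were measured, 7 fell, 2 rose and 20 did not pass, with a median log2 difference of -0.27. Over all genes tested, 9.12% fell and 14.3% rose, and the median was 0.15. Of those that fell, Adh7, Aldh1a1, Hoxa5 and Meis1 counted as measured only through the day 6 arrays. Rlbp1, which rose, counted only through the iPSC arrays. Neither the number of genes called nor the p-values of the genes measured in this way are therefore support. In the list of uptake, transport and storage, 4 of 10 genes were measured and 1 rose. That was Rlbp1, a retinaldehyde carrier of the retina, which read 5.65 and 5.49 at day 6 and 6.70 and 7.48 in the lines (log2 difference 1.52 ± 0.30 SE, limma adjusted p = 0.00838). Counted from the floor it was 1.35-fold higher, with an adjusted p of 0.23 (range over 11 alternatives 0.000479 to 0.23), and the call was also lost without the Firefly array (0.0526) or without the culture labelled Sumo2 knockdown (0.0514). Stra6l, a receptor related to Stra6, read -0.83 and did not reach 2-fold, and Lrat, which stores retinol as esters, was below the floor on all arrays.

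Among 14 retinol and retinaldehyde dehydrogenases, 7 were measured, 2 fell and 0 rose past the threshold. Over all genes tested 9.12% fell and 14.3% rose. Of the 7, 2 (Adh5 and Rdh11) were higher at a limma adjusted p under 0.05 without 2-fold. With no size rule, 5958 of all 12735 genes tested had an adjusted p under 0.05, in either direction. The 2 that fell, Adh7 and Aldh1a1, counted as measured only through the day 6 arrays, so neither their number nor their p-values are support. Rdh13 did not pass by the probe set used (log2 difference 0.39), while its other probe set read -5.84. Adh7, an alcohol dehydrogenase that oxidises retinol, read 8.18 and 7.69 at day 6 and was below the floor in both lines. It was at least 2.41-fold lower there (as read -2.93 ± 0.24 SE on the log2 scale, limma adjusted p = 0.000498). Aldh1a1, a retinaldehyde dehydrogenase that makes retinoic acid, read 8.05 and 7.88 at day 6 and was likewise below the floor in the lines. It was at least 2.47-fold lower (as read -1.83, SE 0.18, limma adjusted p = 0.000789). Its relatives Aldh1a2 and Aldh1a3 were below the floor on all 4 arrays. Rdh11 was 1.88-fold higher in iPSC (log2 difference 0.91, limma adjusted p = 0.00662), short of 2-fold, so the retinol dehydrogenases did not all go the way of Rdh10.

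Fabp5, a fatty acid binding protein that can also carry retinoic acid to the nucleus, fell 4.22-fold (9.43 and 9.45 at day 6, 6.70 in the 38 h line and 8.02 in the 10 day line; limma adjusted p = 0.00764). Its lines differed 2.50-fold, the only gene of the pathway lists past 2-fold between them. The 4 probe sets named Fabp5 ranged from -2.61 to -1.08 in log2 difference, and copies of similar sequence can be read together. Without the 38 h line the fold was 2.67 and without the 10 day line 6.67, and without the Firefly array (adjusted p = 0.0648) or the culture labelled Sumo2 knockdown (0.0537) the call was lost, with a range over its 12 alternatives of 7.63e-05 to 0.0648.

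Of 12 receptors and cofactors, 9 were measured, 1 rose and 0 fell, where 14.3% and 9.12% of all genes tested did. Ncoa3, a coactivator of nuclear receptors, read 9.03 and 9.25 at day 6 and 10.99 and 11.17 in the lines. It rose 3.83-fold (limma adjusted p = 5e-04, log2 difference 1.94 ± 0.16 SE). The receptor genes themselves did not pass. Rara, Rarg, Rxra and Rxrb differed by 0.18, -0.39, -0.27 and -0.31 on the log2 scale and were above the floor on every array. Rarb, a receptor gene that retinoic acid induces, reached the floor only with Firefly knockdown (6.73), with a log2 difference of -0.92 that was short of 2-fold (limma adjusted p = 0.015).

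Of 14 genes listed as targets of retinoic acid, 8 were measured, 4 fell and 0 rose past the threshold, with a median log2 difference of -0.70. Among all genes tested 9.12% fell and 14.3% rose, with a median of 0.15. Hoxa5 and Meis1 counted as measured only through the day 6 arrays, so neither their calls nor their p-values are support. The list was also chosen with earlier results of these data known. The homeobox genes Hoxa5 and Meis1 were below the floor in both lines, at least 4.78-fold and 5.09-fold lower counted from the floor. As read, Hoxa5 and Meis1 differed by -3.11 and -2.72 on the log2 scale (limma adjusted p = 0.000496 and 0.000574). The nuclear receptor gene Nr2f2 fell 2.73-fold (limma adjusted p = 0.00199) and Rai14 2.39-fold (limma adjusted p = 0.00181). Gbx2 and Bhlhe40 were higher by 0.89 and 0.69 at adjusted p under 0.05, but not 2-fold. With no size rule, 5958 of all 12735 genes tested had such a p in either direction. Cdx1 (-0.11) and Tgm2 (-0.14) did not pass. Of the 8 fibroblast markers, Thy1 (-2.70) and Prrx1 (-2.29) fell between the same arrays and the 6 others did not pass, with a median log2 difference of -0.42 over the 8, and their part in the target genes was not tested.

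**Figure D4:**
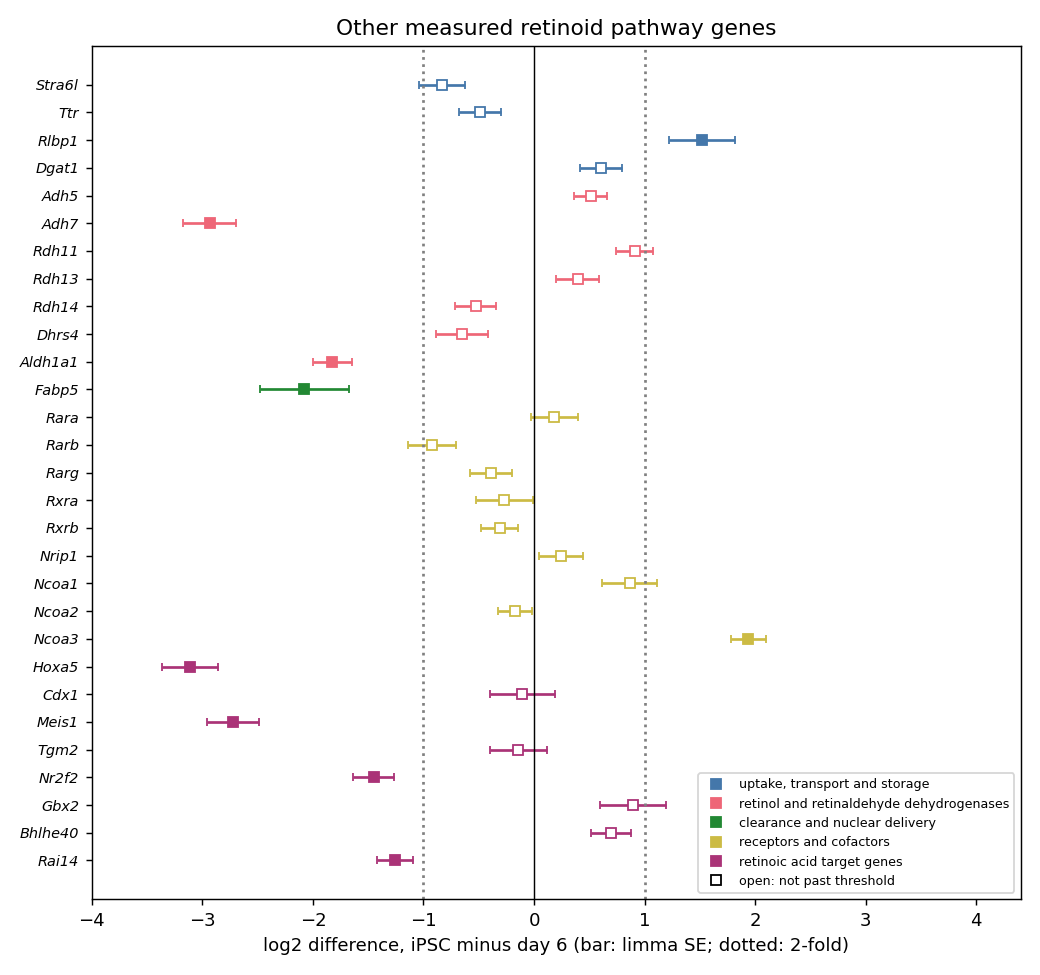
Log2 difference of iPSC minus day 6 (horizontal axis) for the 29 other measured pathway genes (vertical axis), coloured by list, with bars for the limma SE and filled squares for the 9 genes past the threshold. Adh7, Aldh1a1, Fabp5, Hoxa5, Meis1, Nr2f2 and Rai14 are lower by more than 1 and Rlbp1 and Ncoa3 higher.

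For the 3 genes whose values spanned at least 2 on the log2 scale, the nearest patterns among measured genes were found by the Euclidean distance between the 4 array values, each centred on the gene's mean. Crabp2 was nearest to Dlk2 (distance 0.05), Rab7b (0.10) and Spon2 (0.13). Rdh10 was nearest to Epdr1 (0.06), Rgs8 (0.08) and the homeobox gene Hoxa6 (0.08). Dhrs3, with its lower 10 day value, had less close neighbours, namely Tcaf2, the transcription factor gene Runx1 and the endothelin-converting enzyme gene Ece1, at distances of 0.18 to 0.19. Runx1, for example, read 10.05, 9.63, 8.12 and 7.42 across the arrays. With 4 arrays such likeness is a description only.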

How the data were processed

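The deposited values are log2 expression that the authors made with RMA, run in Expression Console of Affymetrix according to the labels (per the submitters' processing notes); versions and settings are not given in the sources used here. RMA includes quantile normalization, so a change of total RNA cannot be seen, and dim probe sets have their differences pulled towards 0. The log base was taken as 2, which RMA writes. Of 41345 probe sets, 23521 had 1 gene symbol, 1814 several and 16010 none listed. Entrez identifiers of 23328 matched a GRCm38.p6 table, which changed 0 symbols. For genes with several probe sets the one with the highest mean was used.

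Both iPSC were compared with both day 6 arrays with limma 3.58.1 in R 4.3.3 (lmFit, eBayes with intensity trend, 2 residual degrees of freedom, Benjamini-Hochberg over all 12735 measured genes). Pairs of single arrays had a 2-fold rule and no test. An exact permutation test of 2 against 2 arrays cannot go below p = 0.333 and was not used. The fit was tested on simulated data with independent noise, which checks the code and not the error rate in these data. Arrays give no counting depth, and their number limits the precision.

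The members and lists were chosen with earlier results of these data known. Named by rule were the members, Sumo2, pathway genes past a threshold and the 3 nearest patterns of each member spanning 2 or more on the log2 scale; the other pathway and marker genes named were chosen after their values were seen. Alternatives were cyclic loess, median centring, no filter, a floor at the 60th percentile, values raised to the floor, the median over probe sets, no trend, robust eBayes, a 1.5-fold rule and leaving out each array. Array coordinates were not used, and promoter windows are RefSeq's.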

Additional observations from a re-analysis of the deposited data

How the results depend on the processing

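Crabp2, Rdh10 and Dhrs3 kept their direction and their call under all 12 alternatives run for them. Their log2 differences ranged from -2.74 to -2.08, from -2.25 to -1.84 and from -2.63 to -1.81, and these extremes came from leaving out 1 array. The number of retinoid genes called was 4, and 3 to 4 when 1 array was left out. It was also 3 with a floor at the 60th percentile or with values raised to the floor, each time without Stra8. The number of other pathway genes called was 9, ranged from 7 to 11 when 1 array was left out, and was 10 with the median over probe sets, which added Rdh13. Cyp26b1, which did not pass in any alternative, was -0.02 and turned to 0.12 without the 10 day line (-0.17 to 0.12 over the arrays left out). Under a 1.5-fold rule the count between the day 6 cultures was 1 (Crabp2) in place of 0, and that between the iPSC lines 2 (Dhrs3 and Stra8) in place of 0, as a lower limit admits more genes. No paired analysis was possible because the labels carry no replicate numbers and each group has 1 array. Signal over background limits what can be said of Cyp26a1, Stra6 and Stra8.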

Other observations

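The probe sets named Rdh13, a short-chain dehydrogenase gene related to Rdh11, gave unlike readings. The one used, with the higher mean, read 7.54 and 7.61 at day 6 and 8.18 and 7.76 in the 38 h and 10 day lines. The other read 9.28 and 8.67 at day 6 and 3.19 and 3.09 in the lines, a log2 difference of -5.84 against 0.39 for the first. Which of them reads the Rdh13 transcript was not tested. Those of Gbx2, by contrast, were both higher in iPSC, by 0.21 and 0.89.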
